A study of Homo sapiens with 3 samples.

Results

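The genes described are 10 members of the T-box family, TBX1, TBX2, TBX3, TBX4, TBX5, TBX15, TBX18, TBX20, EOMES and TBR1, measured by RNA-seq in 3 libraries of human teratoma, a tumour in which pluripotent cells form many differentiated tissues. They were chosen by name and not by a rule on level, though with earlier results of these data known. They were the 10 listed genes out of 27307 gene symbols in the tables. All 10 were found there, and each symbol was represented by its RefSeq transcript entry with the highest mean level. The libraries, called teratomas 1, 2 and 3 after their replicate numbers, came from H1, an established human embryonic stem cell line kept on Matrigel in E8 medium. Per the labels, 1000000 cells were injected subcutaneously into immunodeficient SCID-beige mice and tumours were collected 3 to 4 weeks later. All 3 libraries form 1 group with no comparison group, and no genotype change or drug treatment is named. Whether each library is a tumour or animal of its own is not stated, so the spread between them may be technical.

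T-box proteins are transcription factors that bind DNA through a shared domain, the T-box. Some members mainly repress their targets and others mainly activate them, and the dose of several matters, since loss of a single copy causes human limb, heart or face malformations. In the embryo they give regional identity to mesoderm, including limb bud, heart, body wall and pharyngeal mesenchyme, and a separate branch acts in early mesendoderm and in the cerebral cortex.

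Levels are given as RPKM, read numbers scaled to transcript length in kilobases and to 1000000 reads of the library, which allows levels to be compared between genes. Library totals were 46243199, 45815402 and 43605459 reads. A gene is called detected at 1 RPKM or more in all 3 libraries. Intervals are 95% exact Poisson or binomial limits and cover counting error only. The libraries differed in tissue markers. The summed level of 10 neuron genes, all detected, was 721, 910 and 2421 RPKM in teratomas 1, 2 and 3, and that of 10 fibroblast genes, all detected, was 1994, 1626 and 470. The lists were led by TUBB3 (435, 510 and 1216) and STMN2 (103, 137 and 440), and by COL1A1 (699, 475 and 128) and COL3A1 (427, 443 and 114). In such bulk samples fewer cells of a type and less RNA per cell cannot be told apart. Reads of host mouse origin among the aligned reads were not measured, and their part in the levels was not tested.

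Alternative coding blocks in TBX3 and EOMES are shown first, because the tables list an entry with and an entry without each of them, and the counts of those entries differ. The blocks were read from GENCODE v29 transcripts (GRCh38), and their lengths equal the length differences between the deposited entries, 60 and 57 bases. The TBX3 block is a whole coding exon, exon 3 of the longer transcript, at chr12:114679913-114679972 on the minus strand. The EOMES block is a coding part of exon 6 at chr3:27717752-27717808 on the minus strand. Sequences run 5′ to 3′ in lower case.
TBX3 block: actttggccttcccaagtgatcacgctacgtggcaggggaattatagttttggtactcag
EOMES block: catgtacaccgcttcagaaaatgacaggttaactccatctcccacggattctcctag

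Promoter windows of 250 bases before the annotated start are shown for TBX5 and TBX18, both lowest in teratoma 3, for TBR1, which was lowest in teratoma 2, and for EOMES, which was nearly level. They come from RefSeq (GRCh38.p14), where 7 of the 10 genes had a window, 8 windows in all. Capitals mark CCAAT (or ATTGG, its reverse complement) and TATAAA (or TTTATA).
TBX5 (chr12:114408013-114408262, minus strand): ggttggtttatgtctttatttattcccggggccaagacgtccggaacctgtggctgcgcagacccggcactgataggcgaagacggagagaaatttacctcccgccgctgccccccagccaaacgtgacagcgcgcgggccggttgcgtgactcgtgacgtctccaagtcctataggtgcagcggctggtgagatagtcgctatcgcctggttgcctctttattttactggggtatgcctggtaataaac
TBX18 (chr6:84764599-84764848, minus strand): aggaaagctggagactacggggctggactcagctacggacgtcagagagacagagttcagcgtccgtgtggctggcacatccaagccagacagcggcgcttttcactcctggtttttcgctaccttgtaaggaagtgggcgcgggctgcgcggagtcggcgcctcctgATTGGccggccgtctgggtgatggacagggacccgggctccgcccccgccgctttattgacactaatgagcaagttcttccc
TBR1 (chr2:161416047-161416296, plus strand): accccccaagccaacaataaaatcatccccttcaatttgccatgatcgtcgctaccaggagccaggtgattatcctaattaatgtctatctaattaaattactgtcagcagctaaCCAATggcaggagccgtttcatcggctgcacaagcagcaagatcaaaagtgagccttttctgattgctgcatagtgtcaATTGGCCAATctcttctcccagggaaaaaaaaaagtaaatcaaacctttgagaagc
EOMES (chr3:27722324-27722573, minus strand): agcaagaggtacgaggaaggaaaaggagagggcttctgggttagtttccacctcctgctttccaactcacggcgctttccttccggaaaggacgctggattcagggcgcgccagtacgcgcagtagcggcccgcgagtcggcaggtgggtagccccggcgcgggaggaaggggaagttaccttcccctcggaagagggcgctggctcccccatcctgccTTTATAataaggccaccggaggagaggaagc

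Over the 8 windows the median GC content was 61.8%, against 58% over 35116 windows of all genes, and the median number of CpG dinucleotides was 18 against 11. TBX20 had the richest window, with 74% GC and 31 CpG. The TBR1 window was the poorest, with 42.8% GC and 4 CpG. On either strand, CCAAT was present in 2 of the 8 windows, those of TBR1 and TBX18, and in 32% of all windows. TATAAA was present in 1, that of EOMES, and in 10.7% of all. GGTGTGA, the core of the motif that T-box proteins bind, was in 0 of the 8 and in 2.76% of all windows. The 3 motifs did not overlap in these windows, and a match is a description of letters only.

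Of the 10 genes, 6 were detected in all 3 libraries (TBX1, TBX2, TBX3, TBX4, TBX15 and EOMES), beside 52.7% of all genes. TBX5, TBX18 and TBR1 passed 1 RPKM in at least 1 library, and TBX20 alone (1 of 10) was below it in all 3, beside 39.5% of all genes. The median of the 10 mean levels was 2.87 RPKM, against 2.05 over all genes. By mean level the order was TBX1, TBX3, TBX2, TBX15, TBX4, EOMES, TBR1, TBX18, TBX5 and TBX20. Of the 9 neighbouring pairs in that order, 4 kept their order in every library with a mean log2 difference larger than its SD. These were TBX1 over TBX3, TBX3 over TBX2, TBX2 over TBX15, and TBX18 over TBX5. The place of TBX1 rests on its highest entry. Its other entries, with means of 10.6 and 10.1 RPKM, were below TBX3 in teratomas 1 and 2. TBX15, TBX4, EOMES, TBR1 and TBX18 could not be ordered among themselves as neighbours beyond their spread. TBX5 was above TBX20 in 3 of 3 libraries, but by 0.63 ± 0.77 on the log2(RPKM + 1) scale (SD, n = 3).

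**Figure D1:**
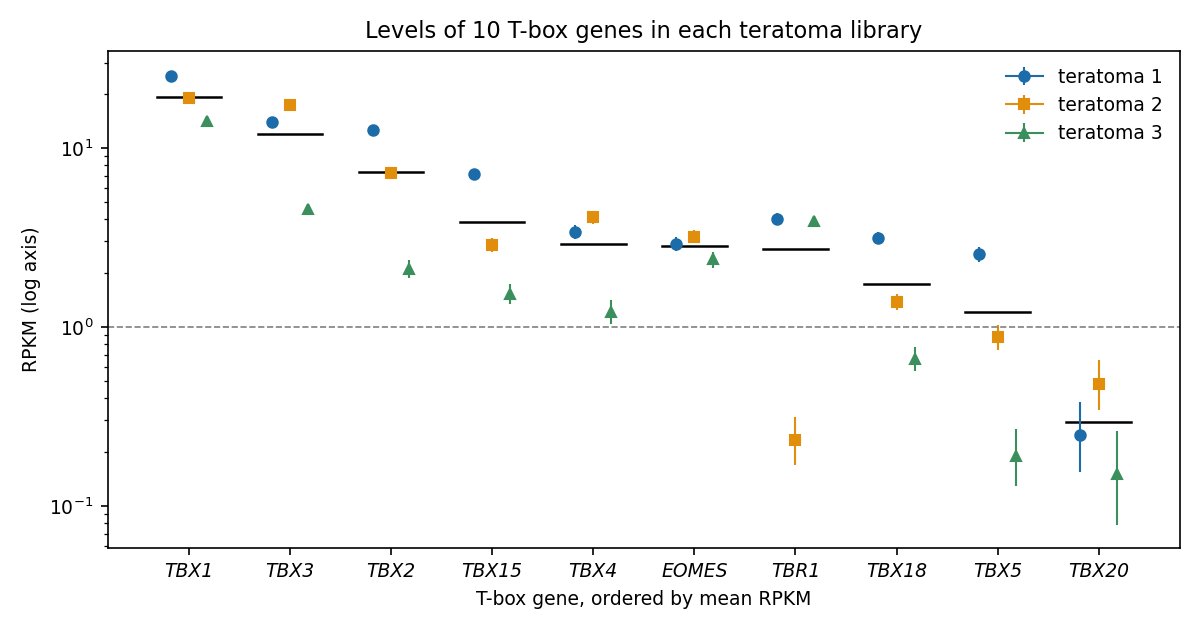
RPKM (log axis) of each T-box gene in teratomas 1, 2 and 3, ordered by mean. Points are libraries with 95% counting intervals, black bars are means of 3 libraries, and the dashed line is 1 RPKM; TBX1 lies above 10 RPKM in every library and TBX20 below 1 in every library.

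The TBX2 subfamily holds 2 repressors, TBX2 and TBX3, and 2 activators, TBX4 and TBX5. In the RefSeq annotation TBX2 and TBX4 lie on chromosome 17, and TBX3 and TBX5 on chromosome 12, each pair with 0 protein-coding genes between its members. TBX3, which acts in limb, mammary gland and heart conduction tissue, stood at 14, 17.4 and 4.56 RPKM in teratomas 1, 2 and 3. TBX2, which acts in heart, lung mesenchyme and optic vesicle, stood at 12.6, 7.27 and 2.11 RPKM. Both repressor genes were lowest in teratoma 3, where neither counting interval reached those of the other libraries. The highest library exceeded the lowest 3.81-fold for TBX3 (95% interval 3.55 to 4.1) and 5.95-fold for TBX2 (5.28 to 6.73).

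TBX4, a factor of hindlimb and lung mesenchyme, stood at 3.39, 4.09 and 1.21 RPKM. TBX5, a factor of forelimb and heart, stood at 2.54, 0.877 and 0.19 RPKM, the last on 31 reads. Both were lowest in teratoma 3, and for both the counting intervals of each pair of libraries lay apart. TBX4 was highest in teratoma 2 and TBX5 in teratoma 1. The highest to lowest ratio was 3.37 for TBX4 (2.84 to 4.02) and 13.4 for TBX5 (9.27 to 19.9). The mean TBX5 level of 1.2 ± 1.21 RPKM (SD, n = 3) rests on teratoma 1, and was 0.534 without it. The TBX2 mean of 7.31 ± 5.22 was 4.69 without teratoma 1.

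With 1 entry per gene, the repressor gene of each chromosomal pair was above the activator gene in each library. On the log2(RPKM + 1) scale TBX3 exceeded TBX5 by 2.08, 3.29 and 2.22 (mean 2.53 ± 0.66), and TBX2 exceeded TBX4 by 1.63, 0.70 and 0.49 (mean 0.94 ± 0.60). TBX4 exceeded TBX5 by 0.88 ± 0.57, and TBX2 minus TBX3 was -0.71 ± 0.51. Each of these held in 3 of 3 libraries with an exact two-sided sign-flip permutation p of 0.25, and 0.3 after Benjamini-Hochberg adjustment over 6 gene pairs. With 3 libraries 0.25 is the lowest p the test can reach. No pair could pass a threshold of 0.05 in this design. Either TBX4 entry taken alone was below TBX2 in each library, the one not used here at 3.34, 3.98 and 1.22 RPKM. The order of TBX2 and TBX4 changed only when entries were summed. With entries of a gene summed, which adds reads shared by entries more than once (TBX2 has 1 entry and TBX4 has 2), TBX2 stood at 12.6, 7.27 and 2.11 RPKM and TBX4 at 6.73, 8.07 and 2.43. TBX2 was then above TBX4 in 1 of 3 libraries (mean 0.18 ± 0.55, exact sign-flip permutation p = 1), and TBX4 above TBX5 in 2 of 3 (0.82 ± 0.80, exact p = 0.5). TBX3 stayed above TBX5 in 3 of 3, and TBX2 minus TBX3 came to -1.63. Without teratoma 1, TBX2 exceeded TBX4 by 0.60.

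In the TBX1 subfamily the namesake, on its highest entry, was the highest T-box gene. TBX1, a factor of pharyngeal mesoderm and endoderm and of the ear, whose loss underlies heart and face defects of 22q11 deletion syndrome, stood at 25.1, 18.9 and 14.1 RPKM. It was lowest in teratoma 3 like the TBX2 subfamily, but the highest to lowest ratio was only 1.78 (1.66 to 1.9). Its mean was 19.4 ± 5.5 RPKM (SD, n = 3).

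TBX15 and TBX18 are close relatives that act in mesenchyme of limb, skin and somites, TBX18 also in epicardium, ureter and the sinus node. TBX15 stood at 7.15, 2.88 and 1.53 RPKM in teratomas 1, 2 and 3. TBX18 stood at 3.15, 1.39 and 0.662 RPKM. Both were highest in teratoma 1 and lowest in teratoma 3, with highest to lowest ratios of 4.68 (4.06 to 5.4) and 4.77 (4.05 to 5.64). The ratio of teratoma 1 to teratoma 2 was 2.48 for TBX15 and 2.28 for TBX18. TBX15 exceeded TBX18 by 0.76 ± 0.19 on the log2(RPKM + 1) scale in 3 of 3 libraries (exact sign-flip permutation p = 0.25, adjusted 0.3), and by 1.52 with entries summed. Without teratoma 1 the means of 3.85 ± 2.93 and 1.73 ± 1.28 RPKM came to 2.2 and 1.02.

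TBX20, a factor required for heart chamber muscle, was the lowest of the 10 by mean level, at 0.249, 0.479 and 0.151 RPKM. These levels rest on 21, 40 and 12 reads. In teratoma 2 TBR1 was lower, at 0.234 RPKM. For TBX20 the ratio of the highest to the lowest library, 3.17, had a wide interval of 1.63 to 6.64.

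The TBR1 subfamily gave the steadiest and one of the least steady profiles. EOMES directs mesendoderm in the early embryo, marks intermediate progenitors in the cortex and acts in NK and T lymphocytes. It stood at 2.92, 3.2 and 2.38 RPKM, with a mean of 2.83 ± 0.416, a coefficient of variation of 14.7%. The other 9 genes had coefficients from 28.4% (TBX1) to 101% (TBX5). TBR1, a factor of early-born glutamatergic neurons of the cortex, stood at 4.02, 0.234 and 3.88 RPKM, on 744, 43 and 678 reads. Teratomas 1 and 3 had overlapping counting intervals, and teratoma 2 was 17.1-fold below teratoma 1 (12.6 to 23.9). EOMES minus TBR1 was -0.35, 1.77 and -0.53 on the log2(RPKM + 1) scale, so the mean of 0.29 ± 1.28 had no steady sign (exact sign-flip permutation p = 1, adjusted 1) and was -0.44 without teratoma 2. With entries summed (EOMES has 3 and TBR1 has 1), EOMES was above TBR1 in 3 of 3 libraries, by 1.59 ± 1.30 (exact sign-flip permutation p = 0.25).

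Between libraries, 9 of the 10 genes were lowest in teratoma 3, and TBR1 was lowest in teratoma 2. Of the 9 members whose mean reached 1 RPKM, 8 were lowest in teratoma 3, beside 48.1% of all genes at that mean. Of the same 9, 6 were highest in teratoma 1, beside 39.8%, and 0 were highest in teratoma 3, beside 39.9%. A gene is called varying when its highest and lowest libraries differed by at least 1 on the log2(RPKM + 1) scale with counting intervals apart. A gene below 1 RPKM in all 3 libraries, such as TBX20, cannot meet this rule. By this rule 7 of the 10 varied (TBX2, TBX3, TBX4, TBX5, TBX15, TBX18 and TBR1), beside 11.7% of all genes and 19.6% of those with a mean of 1 RPKM or more. The median range of the 10 was 1.45, against 0.28 over all genes and 0.45 over those with that mean. Being both varying and lowest in teratoma 3 was found for 6 members, beside 11.6% of genes with that mean. The count of 7 varying genes depended on the libraries. Without teratoma 3 it was 2 (TBX15 and TBR1), beside 1.46% of all genes, and without teratoma 1 it was 4 (TBX2, TBX3, TBX4 and TBR1), beside 7.28%. Without teratoma 2 it was 5 (TBX2, TBX3, TBX5, TBX15 and TBX18), beside 9.97%.

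Connective tissue markers were mostly lowest in teratoma 3, as were most of these genes. The fibroblast sum was 4.24 times higher in teratoma 1 than in teratoma 3 and 3.46 times higher in teratoma 2 than in teratoma 3, and 9 of its 10 genes were lowest in teratoma 3. For the members the ratio of teratoma 1 to teratoma 3 ran from 1.03 (TBR1) and 1.23 (EOMES) to 5.95 (TBX2) and 13.4 (TBX5). All 10 neuron genes were highest in teratoma 3. The part of tissue makeup in the T-box differences was not tested.

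**Figure D2:**
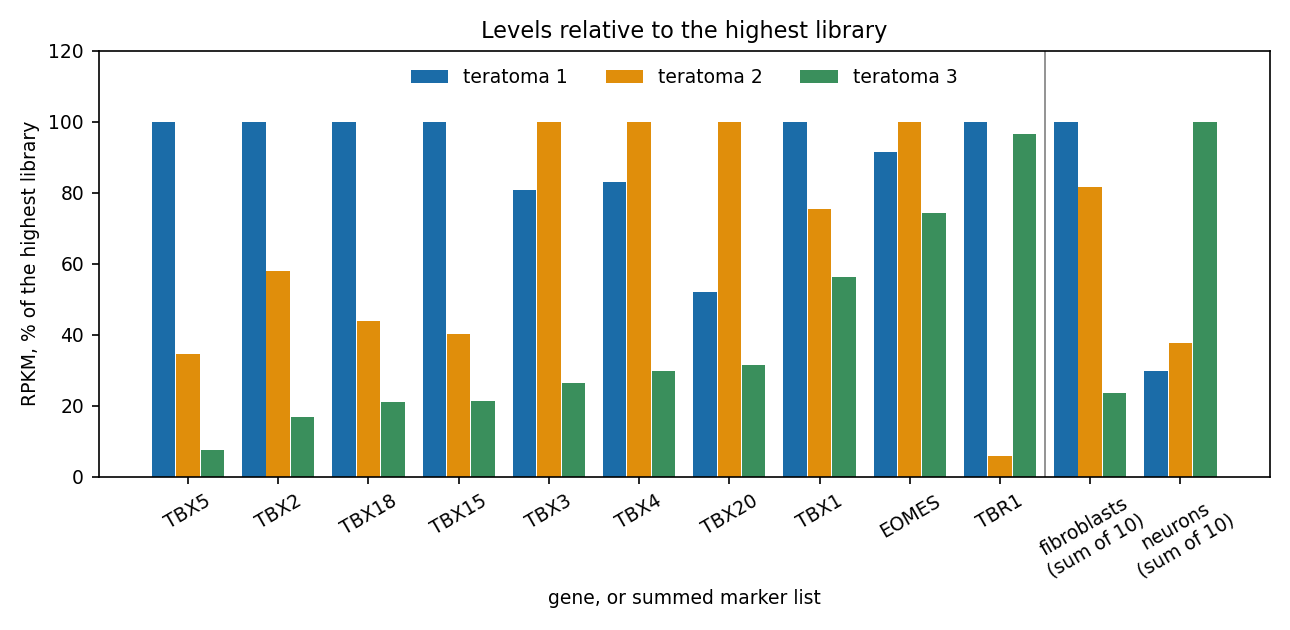
Each library's RPKM as a percentage of the highest library, for the 10 T-box genes and for the summed fibroblast and neuron lists. Teratoma 3 stands at 7.49% to 31.5% of the highest library for TBX5, TBX2, TBX18, TBX15, TBX3, TBX4 and TBX20 and at 23.6% for the fibroblast sum, while TBR1 stands at 5.83% in teratoma 2.

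Genes of the tissues in which the mesodermal members act gave the following background. Beside these counts, 52.7% of all genes were detected and 11.7% varied. Of genes with a mean of 1 RPKM or more, 48.1% were lowest in teratoma 3. Of 10 limb bud genes 8 were detected, 6 varied and 7 were lowest in teratoma 3. PITX1, the hindlimb identity factor that acts with TBX4, led the list at 55.6, 54.3 and 13.7 RPKM, followed by LMX1B, which sets dorsal limb identity and also acts in neurons, at 9.77, 10.9 and 15.1. Of 6 lung and foregut mesenchyme genes 4 were detected, 4 varied and 5 were lowest in teratoma 3, with the forkhead factors FOXF2 at 26.3, 13 and 5.25 and FOXF1 at 11.9, 12.8 and 2.23. Of 6 cranial and dermal mesenchyme genes 4 were detected, 3 varied and 3 were lowest in teratoma 3, led by TWIST1 (28.7, 12.6 and 5.89) and TWIST2 (24.4, 15.6 and 6.63). TWIST1 and TWIST2 were highest in teratoma 1, as were TBX15 and TBX18.

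Of 8 epicardium and mesothelium genes 3 were detected, 4 varied and 7 were lowest in teratoma 3, led by TCF21 (5.79, 13.8 and 1.97), a factor of epicardial and visceral mesenchyme, and MSLN (8.27, 6.27 and 1.85), mesothelin. TCF21 was highest in teratoma 2, unlike TBX18. Of 12 heart genes 6 were detected, 5 were below 1 RPKM throughout, 3 varied and 6 were lowest in teratoma 3. The list was led by GATA4 (21.7, 18.6 and 3.65), which endoderm also makes, and NPPB (8.18, 13.5 and 2.33), a natriuretic peptide gene. Of the contractile genes, TNNT2, MYH6, MYH7 and ACTN2 stayed below 1 RPKM in all 3 libraries, as TBX20 did, while MYL7 stood at 1.01, 1.1 and 0.115. Of 6 pharyngeal genes 2 were detected, 2 varied and 3 were lowest in teratoma 3. This list was led by ISL1 (8.14, 6.09 and 9.02), which neurons also make, and PAX1 (4.98, 3.01 and 0.88), a factor of pharyngeal pouches and vertebral precursors. FOXN1 and GCM2, factors of thymus and parathyroid, were below 1 RPKM throughout.

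Of 7 retina genes 2 were detected and 3 varied, with the eye field factors SIX6 at 32.2, 14.6 and 20 and SIX3 at 22.9, 15.5 and 28.1. No retina gene of the 7 was lowest in teratoma 3, while TBX2, TBX3 and TBX5, which pattern the dorsal retina, were.

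The cortical list did not follow TBR1. Of 11 genes of the cortical excitatory lineage 8 were detected, 4 varied, and 10 were highest in teratoma 3. It was led by NEUROG2 (4.57, 10.3 and 14.4) and PAX6 (4.22, 9.21 and 13.8), factors of cortical and other progenitors. The list's summed level in teratomas 1, 2 and 3 was 34, 50.8 and 79.2 RPKM, so teratoma 2 lay between the others, where TBR1 was at 5.83% of its highest level. Of the 11 genes, 3 were lowest in teratoma 2 (NEUROD1, FEZF2 and SLC17A7, named after their values were seen). None of these 3 varied. Among all genes with a mean of 1 RPKM or more, 20.8% were lowest in teratoma 2. Of all genes whose mean reached 1 RPKM, 0.624% varied and were lowest in teratoma 2.

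**Figure D3:**
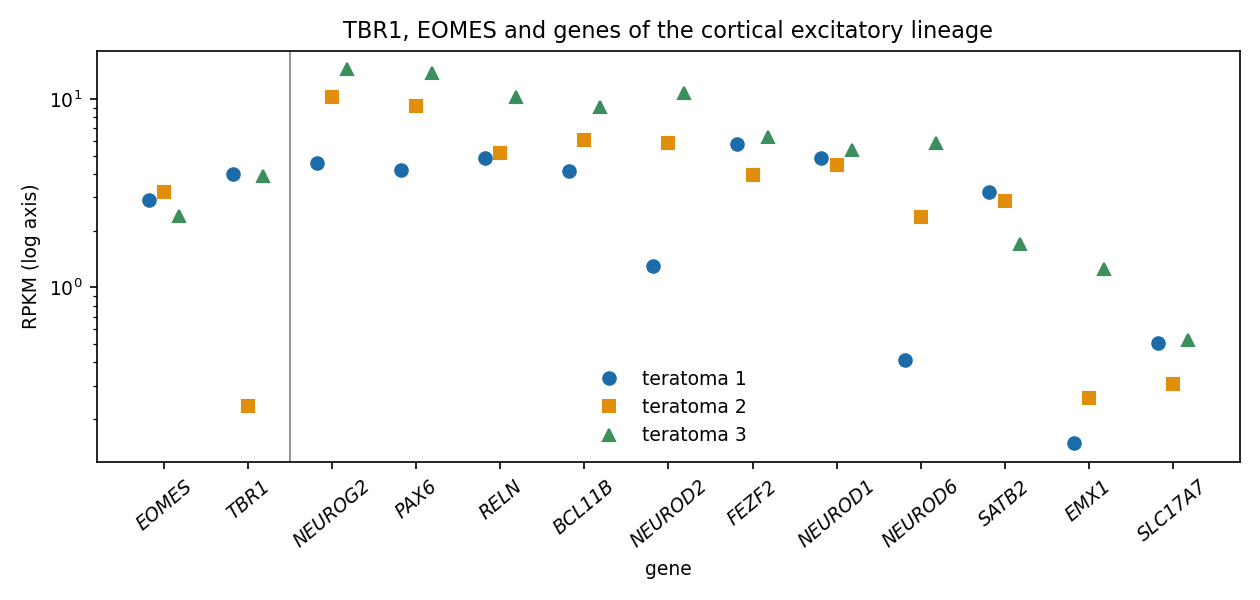
RPKM (log axis) of EOMES, TBR1 and 11 genes of the cortical excitatory lineage in each library, with genes to the right of the line ordered by mean. Teratoma 2 is far below the other libraries for TBR1 (0.234 against 4.02 and 3.88) and within 2-fold or between them for the detected cortical genes.

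EOMES was set beside both of its other settings. Of 8 mesendoderm genes 5 were detected, 4 varied, 3 were highest in teratoma 3 and 4 were lowest there. The list was led by FOXA2 (36.4, 30.2 and 10.1) and LHX1 (10.8, 18.2 and 34.9), both of which also mark later tissues. Of 7 T and NK lymphocyte genes 0 were detected. CD3D and GZMB had 0 reads in at least 1 library each, and the summed list stood at 0.753, 0.607 and 1.44 RPKM, below EOMES in each library. Its leading genes were CD8A (0.286, 0.332 and 1.22) and NKG7 (0.262, 0.106 and 0.167).

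Of the 7 other T-box genes only MGA was detected. MGA, a large factor with both a T-box and a basic helix-loop-helix domain, stood at 4.81, 4.9 and 4.92 RPKM, more even than any of the 10 members. TBX6, of presomitic mesoderm, stood at 1.52, 0.739 and 0.598. The gene T, brachyury, the primitive streak and notochord factor, stood at 0.185, 0.748 and 0.362. TBX19, of the pituitary, stood at 0.805, 0.495 and 0.301, and TBX10 at 0.279, 0.522 and 0.4. TBX22, of the palate, stood at 0.077, 0.068 and 0.0204 RPKM, and TBX21, the T-bet factor of lymphocytes, at 0.0336, 0.0339 and 0.00892, the latter on 4, 4 and 1 reads. None of the 7 varied by the rule above, but 5 of them were below 1 RPKM throughout, where the rule cannot be met. The highest to lowest ratio was 4.04 for T (2.42 to 7.07), 2.68 for TBX19 (1.82 to 4.01) and 2.55 for TBX6 (1.81 to 3.64). No 31-base word was shared between transcripts of any 2 of these 17 T-box genes in GENCODE v29, over 136 pairs.

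Antisense transcripts next to members could be compared with their partners. TBX5-AS1 stood at 2.11, 0.654 and 0.158 RPKM, which was 0.83, 0.746 and 0.828 times the TBX5 level in teratomas 1, 2 and 3. Their exons share 252 bases in GENCODE v29 and no strand setting is given, so reads of the shared bases cannot be told apart. TBX2-AS1 stood at 2.36, 1.79 and 0.104 RPKM on 72, 54 and 3 reads, and shares 0 exon bases with TBX2 in that annotation. Both antisense transcripts were highest in teratoma 1 and lowest in teratoma 3, as were TBX5 and TBX2. All 3 entries of TBX18-AS1 had 0 reads in every library, where 3 reads would have given 0.107 to 0.162 RPKM.

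**Figure D4:**
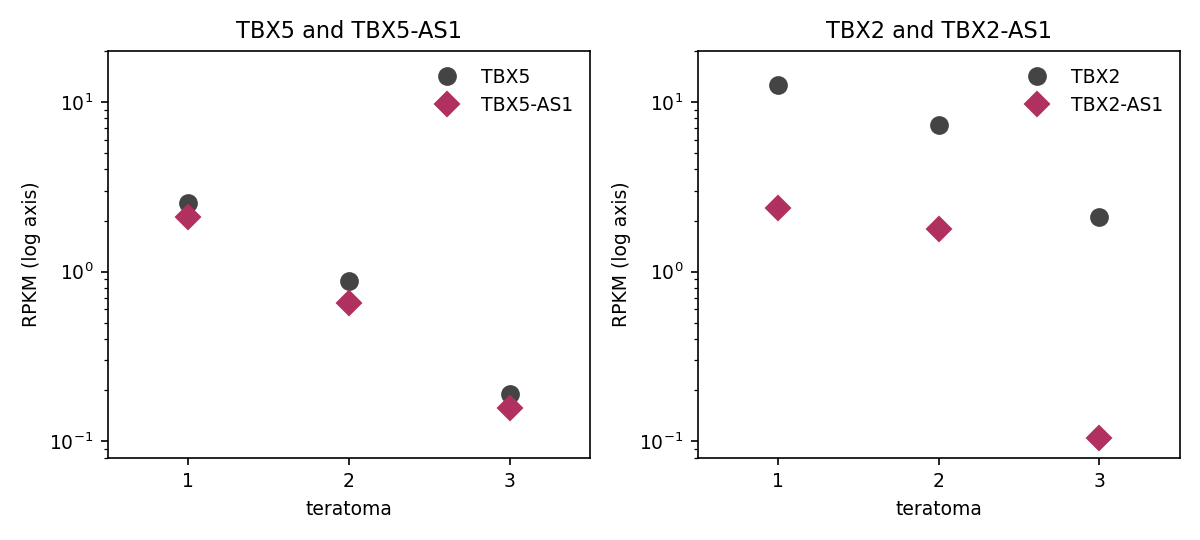
RPKM (log axis) of TBX5 with TBX5-AS1 (left) and TBX2 with TBX2-AS1 (right) in teratomas 1, 2 and 3, 1 point per library. TBX5-AS1 lies just below TBX5 in each library, and TBX2-AS1 lies far below TBX2, most of all in teratoma 3, where it rests on 3 reads.

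Transcript entries of a gene share most of their exons, and their reads were counted for more than 1 entry. For TBX1, the entry NM_080647 (2082 bases) stood at 25.1, 18.9 and 14.1 RPKM and the entry NM_080646 (1464 bases) at 12.4, 10.7 and 8.6. The longer entry was 618 bases longer and held 1572, 1085 and 731 more reads in total. It was 2.02, 1.76 and 1.64 times as high per length. The third entry, NM_005992, stood at 11.8, 10.2 and 8.19 RPKM. The TBX1 level thus depended on the entry, and on NM_080646 the gene would have been below TBX3 in teratomas 1 and 2. Entries of TBX4, TBX5, TBX15 and EOMES differed little: the 3 EOMES entries had means of 2.8, 2.81 and 2.83 RPKM, the 3 TBX5 entries 1.13, 1.09 and 1.2, the 2 TBX15 entries 3.85 and 3.66, and the 2 TBX4 entries 2.85 and 2.9.

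The 60-base TBX3 exon printed above, which separates the isoform known as TBX3+2a from the shorter one, was credited with few reads. The entry with it had 4, 4 and 2 more reads than the entry without it in teratomas 1, 2 and 3. From the read density of the shorter entry, 38.9, 47.8 and 11.9 reads would be expected over its length. Summed over the libraries the extra reads were 10.1% of that expectation (95% interval 4.86 to 18.6). For the 57-base EOMES block the extra reads were 2, 0 and 5, and 31.9% of the expectation in sum (12.8 to 65.6). The TBX3 share was low in each library. The EOMES share in teratoma 3 had an interval from 27.4% to 197%, which included the full expected number. The TBX3 block is a whole exon of 60 bases, and the EOMES block is 57 bases of an exon of 1432 bases. How reads that reach across a block's edge were counted is not given in the sources used here. These shares are therefore not inclusion rates, and those of TBX3 and EOMES cannot be compared with each other.

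**Figure D5:**
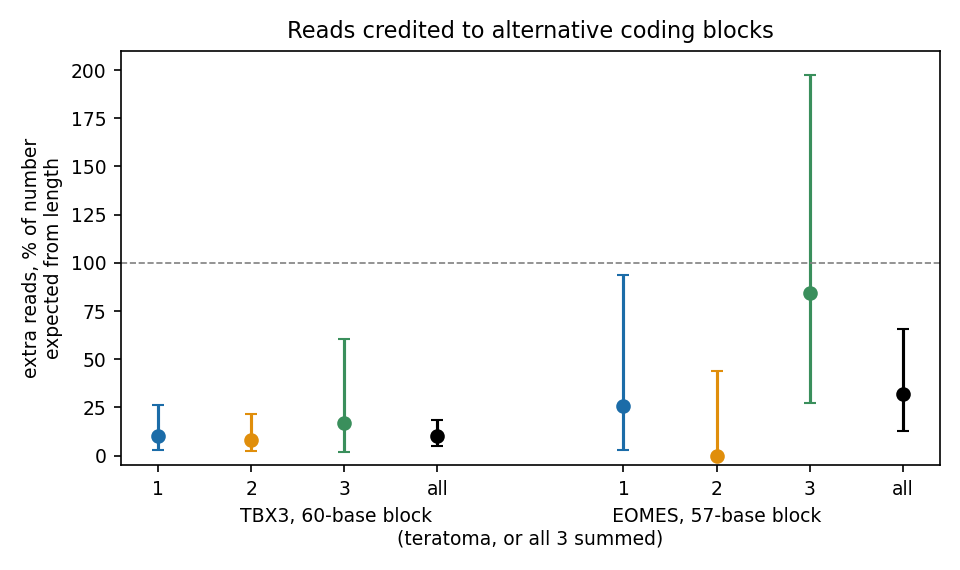
Extra reads of the entry that holds an alternative coding block, as a percentage of the number expected from its length, per library and for all 3 summed, with 95% counting intervals. For TBX3 each library lies between 8.37% and 16.7%, with intervals below the dashed line at 100%, and for EOMES the teratoma 3 interval crosses that line.

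Genes with the most similar profile over the 3 libraries were sought among 15700 others whose mean reached 1 RPKM, by the root mean square difference of deviations on the log2(RPKM + 1) scale. With 3 libraries many genes have a like shape, and 680 genes lay within 0.1 of TBX1. The nearest were MRPL51, HAUS8 and ACACB. For TBX2 45 genes lay within 0.1, with IGFBP4 (140, 84.8 and 31.6 RPKM), ECE1 and VASN nearest. For TBX3 79 did, with QPRT (49.7, 60.7 and 17.8), the hindgut factor CDX2 (25.8, 31.3 and 8.98) and PERP nearest. For TBR1 0 genes did, and the nearest, MIR1234, TH (3.19, 0.877 and 3.66) and MYOG (1.65, 0.114 and 3.55), differed by 0.24, 0.37 and 0.38. At this cutoff TBR1 thus had no match among the genes compared. TBR1 was searched for its wide range, and 0.624% of genes at that mean varied and were lowest in teratoma 2.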

How the data were processed

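Polyadenylated RNA of 3 teratoma samples was sequenced from NEBNext Ultra II libraries, per the labels' protocols. Bowtie2 and hg19 are named in the submitters' processing notes. Not given in the sources used here are the aligner version, the counting tool, filters, strand setting and any removal of mouse reads. The deposited tables list 59443 RefSeq entries. Their RPKM values are the authors' and equal the deposited raw read count divided by length and by 1 total per library. The deposited lengths gave the RPKM check, counting intervals and the reads expected over a block, and the other deposited number, apparently genome placements, only described entries.

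The entry with the highest mean RPKM was kept per symbol, leaving 27307 genes. With 1 group, no model was fitted. Pairs of genes were compared within libraries by exact sign-flip permutation tests on log2(RPKM + 1). The varying rule was tested on simulated counts of 27307 genes that held counting error only. Changed genes were drawn from those with a mean of 5 RPKM or more. Calls were made for 100 of 100 genes changed 4-fold, 100 of 100 changed 8-fold and 5 of 27107 unchanged ones. How often changes are called at lower levels, where most members lie, was not tested, nor was spread beyond counting error. Per-gene chi-square between libraries was 57.7, 314 and 235, so none was a copy. Members and lists (104 genes in 13 lists, all measured; 2 further list genes are not reported here) were chosen with earlier results of these data known. Named were all T-box genes, the 2 highest genes of each other list, and the 3 genes nearest in profile to the highest and the 3 widest-ranging members; TNNT2, MYH6, MYH7, ACTN2, MYL7, FOXN1, GCM2, NEUROD1, FEZF2, SLC17A7, CD3D and GZMB fall outside this rule and were chosen after their values were seen. Genome positions are from GRCh38 annotation, not from the hg19 tables. Alternatives were the detection level, pseudocount, size of difference, a filter on low values, summed entries, 2 rescalings and each library left out. Python 3.11.15, numpy 2.4.6, pandas 2.3.3, scipy 1.17.1 and matplotlib 3.10.9 were used.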

Additional observations from a re-analysis of the deposited data

How the results depend on the processing

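With detection at 0.1 or 5 RPKM, 10 or 1 of the 10 T-box genes were detected, against 6, and 6 to 7 with 1 library left out. With a difference of at least 2 required, 2 genes varied, against 7, and 2 to 5 with 1 library left out. TBR1 became highest in teratoma 3, so that 1 gene and not 0 was highest there, after rescaling to 1000000 per library and after median-of-ratios scaling. With 1 library left out, 0 to 1 were highest there. Without teratoma 2 the mean EOMES minus TBR1 difference turned to -0.44 (range 0.71 to -0.44 with 1 library left out). It was 0.72 with a pseudocount of 0.1, 0.56 after rescaling and 1.59 with entries summed. The mean differences of the other 5 gene pairs kept their sign under each alternative run, but with entries summed TBX2 minus TBX4 (0.18, exact p = 1) and TBX4 minus TBX5 (0.82, exact p = 0.5) were not of 1 sign in all 3 libraries. Counts in teratoma 3 could not be made without that library. Rescaling changes the unit, with a median shift of 1.62, 1.67 and 1.72 on the log2 scale in teratomas 1, 2 and 3. Median-of-ratios scaling shifted it by -0.04, -0.01 and 0.05. Depth limits TBX20, TBX5 in teratoma 3 and TBR1 in teratoma 2, which rest on 12 to 43 reads per library. Samples could not be paired because they form 1 group, and the only pairing was of genes within a library.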
